A study of Mus musculus with 8 samples.

Results

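Fos, Fosb, Fosl1, Fosl2, Jun, Junb, Jund, Atf3, Batf and Maff are 10 of the 23143 genes in the count table. They were chosen by gene symbol as the AP-1 subunits and related basic leucine zipper factors. The rule uses no measured value, but the choice was made with earlier results of these data known. mRNA levels had been followed by RNASeq in RAW264.7 cells, a transformed mouse macrophage line, so that changes in abundance could be set beside changes in translation. The 8 libraries came from an untreated culture (0 min) and from cultures that had received 100 ng/ml lipopolysaccharide (LPS), an outer membrane component of bacteria, for 15, 30, 45, 60, 75, 90 or 120 min. None of the later libraries came from an untreated culture, so effects of LPS and of time or handling cannot be told apart. The labels give the RNA as cytoplasmic, while the methods of the study speak of total RNA. Each time point is 1 library (n = 1), so no comparison below has a replicate check or a p-value, and the ranges in parentheses after ratios are exact 95% intervals that cover counting error only.

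AP-1 is a dimer of proteins that meet through a leucine zipper and grip DNA with the adjacent basic region. Jun-type proteins (Jun, Junb, Jund) can pair with each other, whereas Fos-type proteins (Fos, Fosb, Fosl1, Fosl2) need a Jun-type partner to bind DNA. Toll-like receptor signalling reaches the Fos and Jun genes through MAP kinases, and both are classical immediate early genes, induced without new protein synthesis. Fos and Fosb proteins carry strong activation domains, whereas Fosl1 and Fosl2 lack them. Atf3 is an ATF/CREB family member induced by stress and known as a brake on Toll-like receptor responses. Batf pairs with Jun-type proteins in lymphocytes and dendritic cells, and Maff is a small Maf protein without an activation domain.

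Letters bound by such dimers were searched in the RefSeq windows from 250 bases before to 50 bases after each transcription start (GRCm38.p6), on both strands. Windows were found for 9 of the 10 genes (Fosl1 not among them), 11 windows in all, since Maff has 3. Only the first Maff window (chr15:79346371-79346670) lies at the start of the gene span given below, and it held none of the motifs searched. The other Maff windows, from which the stretches below come, lie at starts inside that span. The short core TGACG was present in 7 of 11 windows, against 20.8% of all 32851 windows. These were the windows of Fos, Fosb, Junb, Atf3 and Batf and the Maff windows inside the gene span. The window of Jun lacked the core, so it was not particular to the genes that were higher at 15 min. This core is also part of the full cAMP response element TGACGTCA, which occurred in 1 of the 11 windows and in 1.79% of all. TGACATCA, the variant known from the Jun promoter, was found in 2 of 11 and in 3.62% of all windows. No window of these genes held the canonical AP-1 site TGACTCA, found in 5.20% of all, or a CArG box, the site of serum response factor, found in 1.63%. Sites more than 250 bases upstream lie outside the windows, so their absence here does not show that a promoter lacks them. An NF-kB motif was present in 4 of the 11 windows, against 4.51% of all. Stretches of 40 bases are shown for the 3 genes that were already more than 2-fold higher at 15 min, Fos, Fosb and Jun, and for Maff, in which both 8-base forms occur; capitals mark the match.
Fos (chr12:85473806-85473845, + strand, match 66 bases upstream): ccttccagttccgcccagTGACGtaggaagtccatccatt
Fosb (chr7:19310084-19310123, - strand, match 60 bases upstream): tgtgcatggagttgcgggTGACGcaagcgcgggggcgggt
Jun (chr4:95052244-95052283, - strand, match 45 bases upstream): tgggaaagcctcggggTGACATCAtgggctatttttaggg
Maff (chr15:79347475-79347514, + strand, match 29 bases upstream): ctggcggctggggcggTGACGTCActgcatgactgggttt
Maff (chr15:79348341-79348380, + strand, match 45 bases upstream): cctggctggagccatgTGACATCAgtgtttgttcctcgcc
Distances are counted from the transcription start used for each window. For Fosb (window chr7:19309996-19310295) this start and the match shown both lie inside the RefSeq gene span given below. The matches are letters in a reference sequence, and no binding was measured.

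Total counts per library lay between 100250892 and 159077286. The share taken by Rn45s, the ribosomal precursor RNA, was 8.18 to 9.11% at 0, 30, 60 and 120 min, but 12.96 to 20.5% at 15, 45, 75 and 90 min, so that the latter 4 libraries stood apart. Counts were divided by median-of-ratios size factors, giving the normalized counts used below, and comparisons were repeated within each of these sets of 4 libraries. Normalized counts are relative to the rest of the library, so RNA per cell and cell number cannot be told apart. Of 8 macrophage markers, 7 had a row in the table, each with at least 5528 counts in every library, whereas Cd3e, Epcam, Col1a1 and Pecam1 had between 0 and 8.

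Nearly the whole group was higher after LPS, and its members joined in at different times. Of the 10 genes, 9 averaged 10 or more normalized counts over the libraries and were measured among 12166 such genes, whereas Batf stayed below. A gene was counted as higher or lower when its log2 ratio to 0 min lay beyond 1 or below -1, a 2-fold difference. At 15 min 3 members were higher (Fos, Fosb, Jun), against 0.666% of all genes measured. At 30 min 7 were higher, all but Fosl1 and Fosl2, against 1.62% of all genes. All 9 were higher at 45 min, against 3.35%. At 60 and 75 min 8 were higher, without Fos, against 3.71 and 4.42%. At 90 and 120 min 7 were higher, without Fos and Jun, against 5.43 and 6.39%. No member was lower at 15, 30, 45 or 60 min, when 0.427, 0.427, 1.37 and 1.98% of all genes were, and Fos alone was lower at 75, 90 and 120 min, against 3.12, 3.83 and 6.02%. With total counts as the scale, the shares of genes above the limit became 2.47, 2.78, 3.69 and 4.8% at 45, 75, 90 and 120 min, and those below it 2.45, 7.15, 6.95 and 8.83%. With totals that exclude Rn45s they were 3.65, 4.36 and 4.85% above and 4.0, 5.19 and 8.69% below at the last 3 of these times. None of the 63 calls of a member at a time point differed under either scale.

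**Figure D1:**
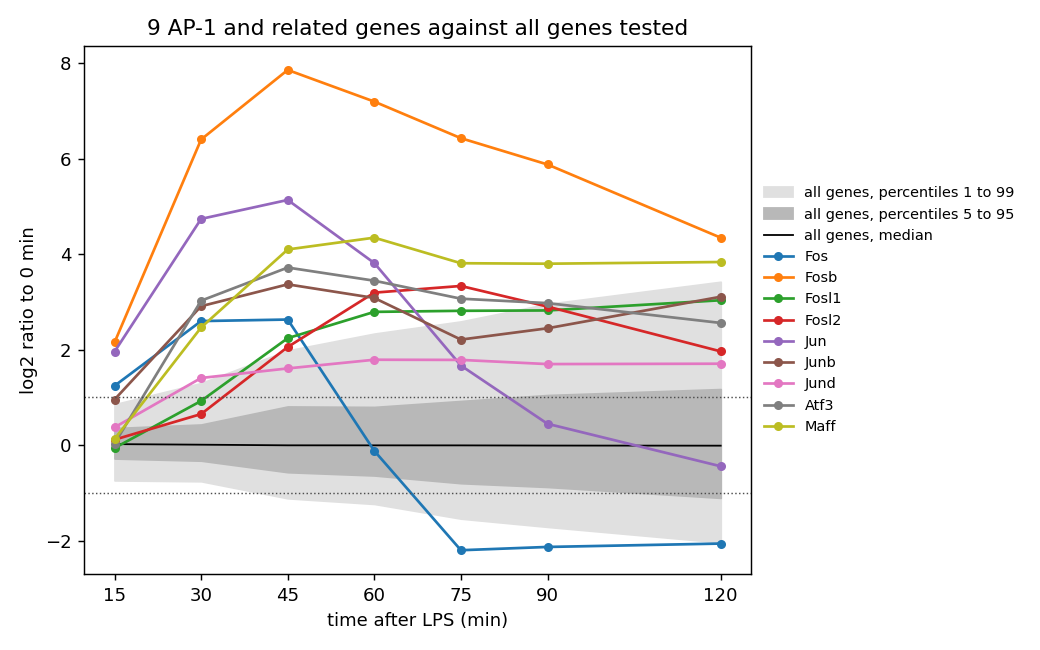
Log2 ratio of normalized counts to 0 min (vertical axis) against time after LPS in min (horizontal axis) for 9 genes, 1 library per time point, over the percentiles of all 12166 genes measured (grey bands, the dotted lines at -1 and 1 mark 2-fold). The Fosb line reaches 7.86 at 45 min and stays highest throughout, while the Fos line drops to -2.20 at 75 min, below the band of percentiles 1 to 99.

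Fos, the prototype of the family, made a short pulse that ended below its starting level. Its gene has 4 exons (GRCm38, chr12:85473890-85477274, + strand), and gene spans here and below are those of RefSeq in this build. Normalized counts were 7734 without LPS and, in the order of time, 18322 (15 min), 46927 (30 min), 47988 (45 min), 7127 (60 min), 1683 (75 min), 1765 (90 min) and 1854 (120 min). The 30 and 45 min libraries stood at the top and differed by a ratio of 1.02 (1.01 to 1.04), and with total counts as the scale the 30 min library was the highest. Relative to 0 min, Fos was 2.37-fold higher at 15 min (2.31 to 2.43) and 6.20-fold higher at 45 min (6.07 to 6.35). From 45 to 60 min it fell 6.73-fold (6.57 to 6.90), and from 60 to 75 min another 4.24-fold (3.98 to 4.50). The last 3 libraries lay at 0.218 to 0.240 of the 0 min level. At 75 min its ratio ranked 27th from the lowest among the 12166 genes. The drop was present within both sets of libraries: 6.58-fold (6.43 to 6.74) from 30 to 60 min where Rn45s was low, and 28.5-fold (26.9 to 30.2) from 45 to 75 min where it was high.

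Fosb showed the highest ratios of the 9 measured members, from the lowest level among them at 0 min. It encodes a close relative of Fos (chr7:19302696-19310118, - strand, 4 exons). Raw counts were 8 before LPS, 32, 709, 1411 and 1130 after 15, 30, 45 and 60 min, and 420, 318 and 172 after 75, 90 and 120 min. Both at 30 and 45 min it ranked 3rd among the 12166 genes. The 8 counts at 0 min leave its ratio loosely fixed, at 4.45 (2.01 to 11.2) for 15 min and 84.8 (42.8 to 197) for 30 min. Comparisons that avoid the 0 min library were tighter, with a rise of 2.74-fold (2.51 to 3.01) from 30 to 45 min and a fall of 11.4-fold (9.75 to 13.5) from 45 to 120 min. At 120 min Fosb was still 20.4-fold (10.1 to 47.9) above 0 min, whereas Fos was by then below it.

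Fosl2 and Fosl1, the Fos-type genes whose products lack a strong activation domain, passed the 2-fold limit only from 45 min on and were still above it at 120 min. Both were already higher at 30 min, Fosl2 by 1.57-fold (1.51 to 1.64) and Fosl1 by 1.90-fold (1.75 to 2.07), so the interval of Fosl1 included the limit. Fosl2 (chr5:32136472-32157840, + strand, 4 exons) had normalized counts of 3461 without LPS and, in the order of time, 3751 (15 min), 5442 (30 min), 14412 (45 min), 31742 (60 min), 34972 (75 min), 25916 (90 min) and 13523 (120 min). It was 10.1-fold (9.77 to 10.4) above 0 min at 75 min and fell 2.59-fold (2.54 to 2.64) from there to 120 min. The 60 and 75 min libraries were close, with a ratio of 1.102 (1.08 to 1.12), and with total counts as the scale the 60 min library was the highest.

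Fosl1 was the only member that was highest in the last library. Its normalized counts were 755 before LPS, 724, 1435, 3571 and 5233 after 15, 30, 45 and 60 min, and 5314, 5342 and 6195 after 75, 90 and 120 min. The 60, 75 and 90 min libraries did not differ beyond counting error from one to the next, with ratios of 1.02 (0.975 to 1.06) and 1.01 (0.962 to 1.05). At 120 min Fosl1 was 8.21-fold (7.66 to 8.81) above 0 min. The gene (chr19:5447698-5455938, + strand, 4 exons) overlaps Ccdc85b on the opposite strand, and 1053 of its 1807 possible reads of 58 bases (58.3%) have the sequence of that gene too. The study discarded reads that matched more than 1 gene symbol, and whether mapping used the strand is not stated, so part of the Fosl1 transcript may not have been counted. Ccdc85b, picked for this overlap after its values were seen, moved the other way, from 2653 normalized counts at 0 min to 834 at 120 min.

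**Figure D2:**
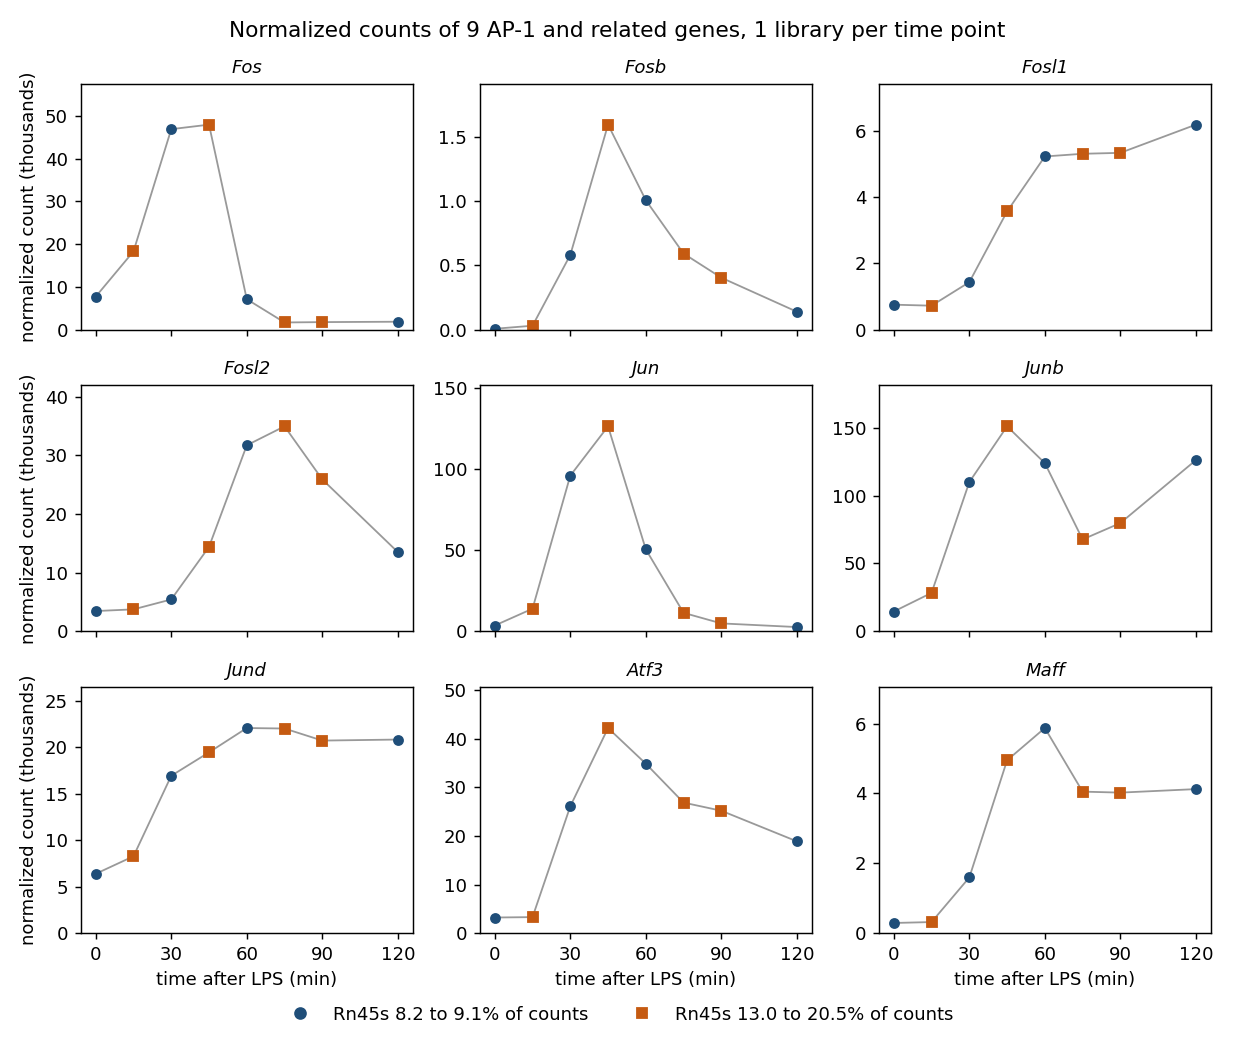
Normalized counts (vertical axis in units of 1000, from 0 in each panel) against time after LPS in min for 9 genes, 1 point per library. Circles are libraries with 8.18 to 9.11% of counts on Rn45s and squares those with 12.96 to 20.5%. Fos and Jun rise and return within the 120 min, whereas Fosl1 and Jund stay near their top.

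Among the Jun-type genes, Jun itself had the steepest pulse. Jun (chr4:95049036-95052222, - strand, a single exon) had normalized counts of 3585 without LPS and, in the order of time, 13951 (15 min), 95944 (30 min), 126315 (45 min), 50507 (60 min), 11399 (75 min), 4892 (90 min) and 2640 (120 min). It was 3.89-fold (3.76 to 4.03) higher at 15 min and 35.2-fold (34.2 to 36.4) higher at 45 min, ranking 9th of all 12166 genes at 30 min. From 45 to 120 min it fell 47.9-fold (46.2 to 49.6), to 0.736 (0.703 to 0.771) of the 0 min level. The decline trailed that of Fos: from 30 to 60 min, both libraries with little Rn45s, Jun fell 1.90-fold (1.88 to 1.92) and Fos 6.58-fold. In the libraries with more Rn45s, Jun fell 11.1-fold (10.8 to 11.3) from 45 to 75 min. An antisense gene, Junos, overlaps 5.59% of the possible reads of Jun but is no row of the table.

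Junb had the highest counts of the group and 2 crests. Its product binds the same sites as Jun and is a weaker activator. Junb (chr8:84976909-84978748, - strand, a single exon) had normalized counts of 14602 before LPS, 28348, 109980, 151042 and 123929 after 15, 30, 45 and 60 min, and 67701, 79788 and 126141 after 75, 90 and 120 min. At 15 min it was 1.94-fold (1.91 to 1.98) higher, just short of the 2-fold limit, and at 45 min 10.3-fold (10.2 to 10.5). It then fell 2.23-fold (2.21 to 2.25) from 45 to 75 min and was 1.86-fold (1.84 to 1.88) higher again at 120 min than at 75 min. The low point rests on the 75 and 90 min libraries, both of which had much Rn45s: among the libraries with little of it, Junb was 1.13-fold (1.12 to 1.14) higher at 60 than at 30 min and 1.02-fold (1.01 to 1.03) higher at 120 than at 60 min. Within the set with more Rn45s the fall from 45 to 75 min had the size given above. The part of Rn45s in this dip was not tested.

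Jund, the Jun-type gene known for steady expression, had the smallest response of the measured members. Jund (chr8:70697739-70700616, + strand, a single exon) had normalized counts of 6376 without LPS and, in the order of time, 8262 (15 min), 16927 (30 min), 19448 (45 min), 22065 (60 min), 22011 (75 min), 20713 (90 min) and 20825 (120 min). It was 2.65-fold (2.59 to 2.73) higher at 30 min and 3.46-fold (3.37 to 3.55) at 60 min. The 60 and 75 min libraries did not differ beyond counting error, with a ratio of 0.998 (0.978 to 1.02), and from 60 to 120 min the count fell by a factor of 1.06 (1.04 to 1.08). The predicted gene Gm11175 on the opposite strand shares 47.5% of its possible reads and is no row of the table.

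**Figure D3:**
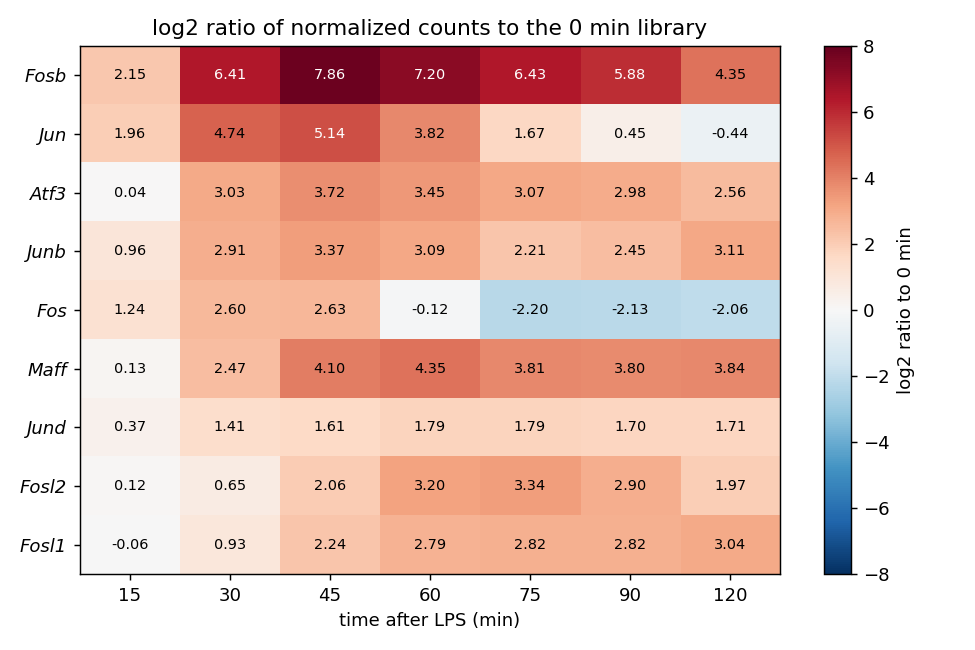
Log2 ratio of normalized counts to the 0 min library for 9 genes (rows) at 7 times after LPS in min (columns), red for higher and blue for lower, with the value written in each cell. The values run from -2.20 for Fos at 75 min to 7.86 for Fosb at 45 min.

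Atf3 was still at its starting level at 15 min and then climbed fast. Atf3 (chr1:191170296-191183333, - strand, 4 exons) had normalized counts of 3201 before LPS, 3280, 26119, 42256 and 34906 after 15, 30, 45 and 60 min, and 26884, 25209 and 18904 after 75, 90 and 120 min. The 15 min library did not differ from 0 min beyond counting error (ratio 1.02, 0.978 to 1.07). From 15 to 30 min the count rose 7.96-fold (7.69 to 8.25), the second largest such step of the group after the 19.1-fold (13.4 to 28.1) step of Fosb. At 45 min Atf3 was 13.2-fold (12.8 to 13.7) above 0 min, and at 120 min 5.91-fold (5.70 to 6.11).

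Maff, which encodes a partner of Nrf and Bach factors, behaved much like Atf3 at the start and kept its level at the end. Maff (chr15:79346621-79359078, + strand, 3 exons) had normalized counts of 288 without LPS and, in the order of time, 315 (15 min), 1594 (30 min), 4950.4 (45 min), 5876 (60 min), 4053 (75 min), 4025 (90 min) and 4125 (120 min). The ratio of 15 min to 0 min was 1.09 (0.936 to 1.28). Maff was 20.4-fold (18.3 to 22.8) higher at 60 min, and the 75, 90 and 120 min libraries stayed at 14.0- to 14.3-fold.

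Batf (chr12:85686720-85709087, + strand, 3 exons) was not reliably detected at this depth in any library. It had 0 counts in 7 libraries, which allows up to 3 counts each, or 2.46 to 4.22 normalized counts, and 1 count at 120 min (95% Poisson interval 0.0253 to 5.57 counts). No ratio was computed for it.

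**Figure D4:**
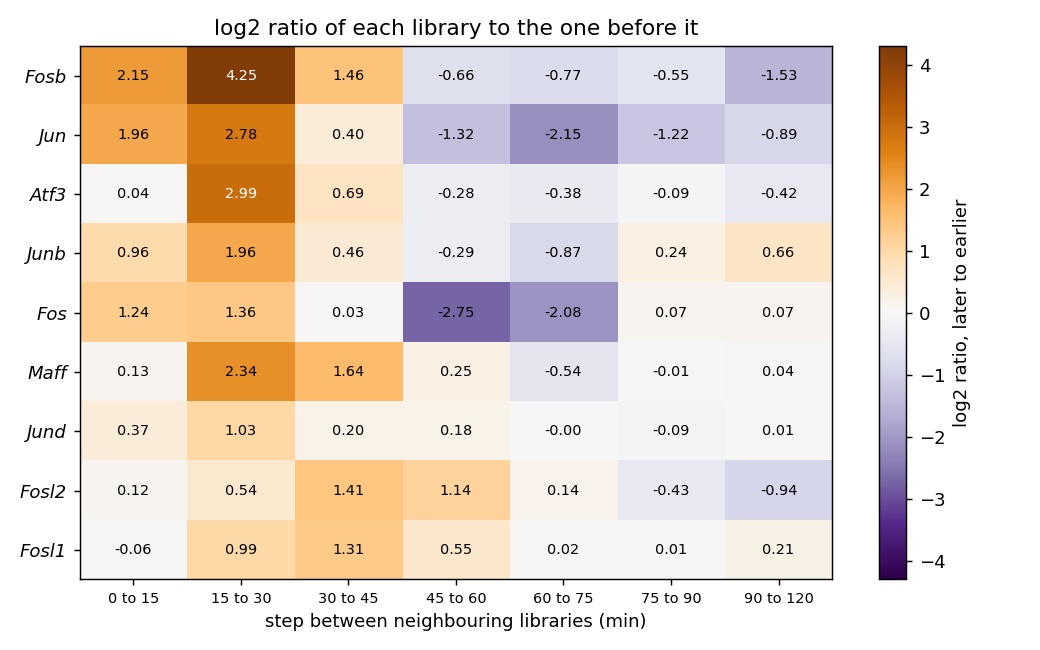
Log2 ratio of each library to the library before it for 9 genes (rows) over the 7 steps between neighbouring times in min (columns), orange for a rise and purple for a fall. The largest rise is the step of Fosb from 15 to 30 min (4.25) and the largest fall the step of Fos from 45 to 60 min (-2.75).

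The order of the highest libraries was thus Fos, Fosb, Jun, Junb and Atf3 at 45 min, Jund and Maff at 60 min, Fosl2 at 75 min and Fosl1 at 120 min. This places 5 of 9 before 60 min. The count depends on the 45 min library, since without it, or with the 0, 30, 60 and 120 min libraries alone, only Fos and Jun (2 of 9) were highest before 60 min. Without the 45 min library, Fosb and Atf3 were highest at 60 min and Junb at 120 min.

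Per kb of the longest annotated transcript, which allows levels of different genes to be compared, the Fos-type sum was made up of other genes at the end than at the start. Fos held 79.7% of the Fos-type sum before LPS and 92.7% at 30 min, but its share was 29.9, 8.72 and 13.9% after 60, 75 and 120 min. The share of Fosl2 went from 11.5% at 0 min to 58.4% at 75 min and 32.8% at 120 min, and that of Fosl1 from 8.79% to 52.7% at 120 min. Fosb never held more than 2.35%. Which gene led the sum at 60, 75 and 90 min depends on the length given to Fosl1. Over its whole length Fosl2 led, with 42.9, 58.4 and 51.0% against 24.8, 31.1 and 36.9% for Fosl1. Calculated over the 754 possible reads that Fosl1 does not share with Ccdc85b, Fosl1 led at these times, with 44.9, 52.8 and 59.1% against 31.4, 40.1 and 33.1% for Fosl2. On that basis the share of Fosl1 was 19.2% at 0 min and 73.4% at 120 min.

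The Jun-type sum was led by Junb throughout. Junb held 62.0% of it at 0 min, 60.2% at 30 min and 84.0% at 120 min. Jun held 8.63% at 0 min, 29.8% at 30 min and 0.997% at 120 min, and Jund 29.4%, 10.0% and 15.0% at these times. These shares take Jund at 1668 bases, whereas its RefSeq gene length is 2878. At that length its share would be smaller and those of Junb and Jun larger, but these shares were not computed. In normalized counts per kb, the Fos-type sum was 4605 at 0 min, 27307 at 45 min and 6308 at 120 min, and the Jun-type sum 13019, 134764 and 83042. The Fos-type sum was lower than the Jun-type sum in all 8 libraries, and the ratio of Fos-type to Jun-type was 0.354 before LPS, 0.386, 0.238, 0.203 and 0.116 after 15, 30, 45 and 60 min, and 0.169, 0.134 and 0.0760 after 75, 90 and 120 min. With Fosl1 over its unshared reads only, the 120 min ratio was 0.135 and the 75 min ratio 0.246, against 0.3995 at 0 min.

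**Figure D5:**
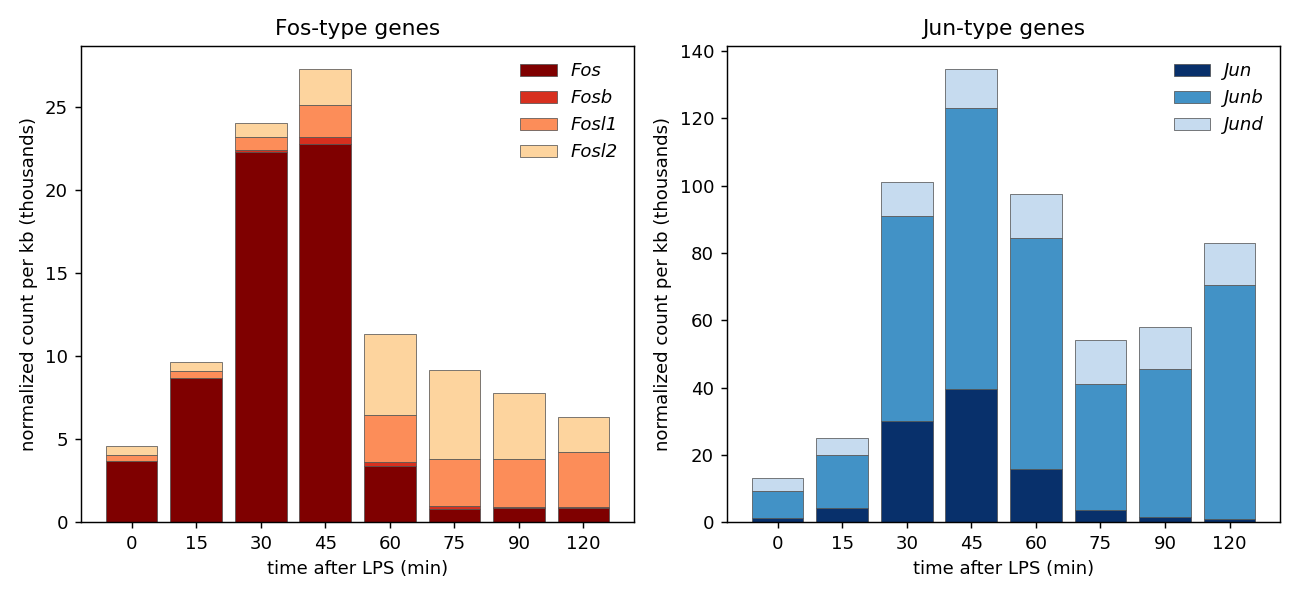
Normalized counts per kb of transcript (vertical axis in units of 1000, from 0) in the 8 libraries (time after LPS in min, horizontal axis), stacked by gene for the Fos-type genes (left) and the Jun-type genes (right, on its own scale). Both stacks are highest at 45 min, and Fosl2 and Fosl1 together fill most of the left stack from 60 min on (Fosl1 over its whole length), while Junb fills most of the right stack throughout.

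Few other basic leucine zipper genes passed the 2-fold limit. Of 21 relatives (ATF, CREB, Maf, Nrf and Bach genes), 18 were measured, and 1, 1, 2 and 1 of them were higher at 30, 45, 60 and 120 min, against 1.62, 3.35, 3.71 and 6.39% of all genes. At 120 min 1 was lower, against 6.02%. Counts of 1 or 2 show nothing particular to the list. Their median log2 ratio was 0.11, 0.17, 0.33 and 0.58 at these times, against medians of all genes between -0.01 and 0.01. Jdp2, a repressor that pairs with Jun-type proteins, was 5.22-fold (5.09 to 5.36) higher at 120 min. Mafk, a small Maf like Maff, was 2.08-fold (2.01 to 2.16) higher at 60 min, but 1.95-fold with total counts as the scale and 1.94-fold with totals that exclude Rn45s. Bach2, with 21 counts at 0 min, was 3.08-fold (1.81 to 5.41) higher at 45 min.

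The kinases and promoter factors that act on Fos and Jun were for the most part within 2-fold of 0 min. Of 20 such genes, all measured, none was higher at 30 or 45 min, and only Srf, the serum response factor, was at 60 and 120 min, by 2.18-fold (2.13 to 2.23) and 2.40-fold (2.35 to 2.46). These counts of 0, 0, 1 and 1 stand against 1.62, 3.35, 3.71 and 6.39% of all genes. None was lower at these 4 times, when 0.427, 1.37, 1.98 and 6.02% of all genes were. Rps6ka3, a kinase downstream of ERK, came closest at 45 min with 1.99-fold (1.84 to 2.14). Mapk14, which encodes p38α, and Map2k6, a kinase that activates it, were at 0.560 (0.544 to 0.577) and 0.592 (0.489 to 0.716) at 120 min. With total counts as the scale Mapk14 was at 0.487 of the 0 min level at 120 min, and with totals that exclude Rn45s at 0.490, both below the limit. The medians of this list were 0.08, 0.15, 0.10 and 0.02 at 30, 45, 60 and 120 min.

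Of 6 regulators of the Jun and Fos proteins, 1 passed the 2-fold limit, at 120 min, when 6.39% of all genes did. This was Rfwd2, which encodes the ubiquitin ligase COP1, with 2.12-fold (2.07 to 2.18), but 1.85-fold with total counts and 1.86-fold with totals that exclude Rn45s. Fbxw7 and Itch, both ubiquitin ligases that act on Jun, reached 1.23-fold (1.19 to 1.28) at 60 min and 1.23-fold (1.19 to 1.26) at 120 min. Det1, a component of the COP1 ligase, was at 0.854 (0.801 to 0.910) at 45 min. The medians of these 6 genes were 0.07, 0.13, 0.12 and 0.18.

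Genes known as AP-1 targets were above the 2-fold limit most often at 120 min. Of 14 genes, 13 were measured, and 3, 2, 4 and 8 of them were higher at 30, 45, 60 and 120 min, against 1.62, 3.35, 3.71 and 6.39% of all genes. At 30 min 2 of the 3 lay within counting error, Mmp9 with 7 counts at 0 min and 16 at 30 min (ratio 2.19, 0.852 to 6.29) and Il6 with 1 and 4 counts (ratio 3.83, 0.379 to 189). None was lower at these times, but Ccnd1, which encodes cyclin D1 and was picked after its values were seen, passed the limit downwards at 120 min on other scales. It was at 0.506 (0.501 to 0.512) of the 0 min level in normalized counts, and at 0.440 with total counts, 0.443 with totals that exclude Rn45s and 0.499 with TMM factors. The median log2 ratio of the list was 0.33, 0.09, 0.65 and 1.37. Plaur, the urokinase receptor, was 6.88-fold (6.73 to 7.03) and Timp1, an inhibitor of matrix metalloproteinases, 6.44-fold (4.38 to 9.79) higher at 120 min. Il6, which encodes the cytokine interleukin 6, had 1 count before LPS and 1202 after 120 min, which gives a ratio of 1139 with a counting interval of 204 to 45014.

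As a description of shape, the genes whose log2(normalized count + 1) followed each member most closely over the same 8 libraries were taken by Pearson's coefficient among 1571 genes that varied at least 2-fold. The points share their libraries and thus their depth and Rn45s share. Fos was closest to Klf2 (0.99), Dlx1 and Fam214a, and Jun to Pnrc1 (0.98), Arc and Zfp36l1. Fosb was closest to Cited2 (0.98), Taf7 and Tgif1, and Atf3 to Dusp1 (0.98), Prr7 and Ier5. Junb was closest to Ier3 (0.98), Fam83e and Ccnl1. Fosl1 was closest to Npnt (0.998), Traf1 and Slc20a1, and Fosl2 to Zfp420 (0.99), Hmgcs1 and Bcar1. Jund was closest to Ccrl2 (0.998), Nfkbiz and Map1b, and Maff to Dusp8 (0.999), Cd83 and Rasgef1b. By the same measure Fos itself was nearest to Jun among the members (0.78), and its coefficients with Fosl1 (-0.56) and Fosl2 (-0.55) were negative. The courses were not opposite throughout, since at 45 min Fos, Fosl1 and Fosl2 were all higher than at 0 min (6.20-, 4.73- and 4.16-fold).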

How the data were processed

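The table deposited by the authors holds raw read counts, summed by gene symbol, for 8 libraries. According to the methods, ribosomal RNA was removed, libraries were made with a directional kit, and reads of 58 bases were mapped with Bowtie (at most 2 mismatches, all best alignments) to mouse RefSeq transcripts of mm10. Reads that fell on more than 1 gene symbol were dropped. The submitters' processing notes name CASAVA 1.8.2 and DESeq 1.10.1, and the version of Bowtie is not given in the sources used here. The spike-in RNAs of the study were not analysed here.

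Ratios of normalized counts (median-of-ratios size factors over 8 libraries) were computed in scipy 1.17.1 and pandas 2.3.3 (Python 3.11.15) with exact conditional binomial 95% intervals. In list counts a count of 0 was set to 3 counts. With 1 library per time point no residual degrees of freedom remain, so no test was run. TMM factors came from edgeR 4.0.16 (R 4.3.3). Gene spans and windows are from RefSeq (GRCm38.p6), transcript lengths from GENCODE M21. Alternatives were total counts with and without Rn45s, TMM, a correction for transcript length, a pseudocount of 1, a log2 limit of 0.5, no minimum count, other lengths, and leaving libraries out. The code was tested on simulated data.

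The members and lists were chosen with earlier results of these data known. Named are all members, up to 4 genes per list that lay farthest from 0 min at 30, 45, 60 or 120 min, the 3 genes most like each member among those that averaged 100 or more normalized counts and whose highest library was at least 2 times the lowest, and Rn45s. Some genes that this rule or the marker list would name are not reported here. Batf3, Creb5, Maf and Mmp13 were below the minimum of 10. Spi1 has no row under that symbol.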

Additional observations from a re-analysis of the deposited data

How the results depend on the processing

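No member beyond the limit changed direction under any alternative, and the counts of members beyond the limit stayed within 1.5 times of those given under all 174 alternatives. Total counts lowered all log2 ratios by up to 0.33 (75 min), without changing a call. The length correction brought Junb past 2-fold at 15 min, with 1 of 63 calls changed. A limit of 0.5 added Junb at 15 min and Fosl1 and Fosl2 at 30 min. Of 9 members, 5 were highest before 60 min. Only 2 were when the 45 min library was left out, and 2 when just the libraries with little Rn45s (0, 30, 60, 120 min) were used, and over all libraries left out in turn the number ran from 2 to 6. Of all genes, 0.666 to 6.39% were higher and 0.427 to 6.02% lower over the 7 times, against 3.15 to 8.2% and 1.8 to 7.84% without the minimum count, and 2.75 to 16.9% and 2.17 to 15.9% with the limit of 0.5.

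The ratio of the Fos-type to the Jun-type sum depends on the lengths used. With mean transcript lengths it was 0.499, 0.546, 0.340, 0.285, 0.152, 0.219, 0.171 and 0.0979 in the 8 libraries in order of time. With Fosl1 over its unshared part, chosen after seeing the data, it was 0.3995 without LPS, 0.409, 0.224 and 0.158 after 15, 45 and 60 min, and 0.246, 0.207 and 0.135 after 75, 90 and 120 min. With Jund at its RefSeq gene length, also chosen after seeing the data, it was 0.404 without LPS, 0.422 and 0.123 after 15 and 60 min, and 0.188, 0.147 and 0.0811 after 75, 90 and 120 min. Less the trend with length it was 0.110, 0.150, 0.122 and 0.0710 at 60, 75, 90 and 120 min. It stayed below 1 in all libraries under each of these.

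Over the 4 related lists, 57 genes were measured. With a limit of 0.5, 11, 16 and 23 were higher at 45, 60 and 120 min in place of 3, 7 and 11, and 1 and 5 were lower at 45 and 120 min in place of 0 and 1. At 120 min 3 were lower with total counts, 3 with totals without Rn45s and 2 with TMM factors. Mapk14 and Ccnd1 were the genes added with both totals and Ccnd1 with TMM, and Mafk (60 min) and Rfwd2 (120 min) fell short of the upper limit with both totals. No paired analysis was possible because each time point is 1 library. The depth limits Batf and the Fosb ratios to 0 min, and differences between cultures were not measured.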
